A study of Mus musculus with 6 samples.

Results

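Chemokines and the receptors that bind them were measured in heart samples of mice of the inbred FVB strain, with and without irisin. The genes were taken by symbol: every row whose platform symbol was Ccl, Cxcl, Ccr, Cxcr or Ackr with a number, or Cx3cl1, Cx3cr1, Xcl1 or Xcr1. This rule found 56 of the 23185 genes with a row, 34 ligands and 22 receptors, without use of their measured values. There were 3 arrays of wild type and 3 of irisin knockout heart. Irisin is a circulating fragment of the protein made from Fndc5, and the knockout line was made by injecting Cas9 mRNA and several guide RNAs into FVB zygotes. Controls were littermates, and both groups ate standard chow (20% protein, 70% carbohydrate, 10% fat) over 24 weeks; the sources used here do not give age, sex or number of founders. The titles and cell type labels name the material as cardiomyocytes and the descriptions as myocardium. Each array is described as from an animal, but whether all 3 in a group differ in animal is not said, and if they do not, p-values measure only a spread that may be technical.

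Chemokines are small secreted proteins that guide the movement of leukocytes. They are named for the spacing of their first cysteines, as CC, CXC, CX3C or XC chemokines, and most act on G protein-coupled receptors that share their letters. Atypical receptors (Ackr) bind chemokines without G protein signalling and mostly remove them. In the heart, resident macrophages, fibroblasts, endothelium and smooth muscle are known sources of these proteins, and after injury they draw in neutrophils and monocytes.

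Levels are deposited log2 values, and each difference below is knockout minus wild type in log2 units, tested with limma over all 23185 genes with Benjamini-Hochberg adjustment and a threshold of 0.05. A gene past that threshold is said to be called, to have risen or to have fallen. As the file has no detection calls, a background level was set at 1.78, the 95th percentile of the mean levels of 1354 olfactory and vomeronasal receptor genes, which are taken as silent in heart. Array medians lay at 2.23 to 2.28 in wild type and 2.13 to 2.16 in the knockout, and the number of arrays limits the precision. Fndc5 read 8.43, 8.40 and 7.83 in wild type and 7.68, 5.49 and 5.45 in knockout replicates 1, 2 and 3, so knockout replicate 1 lay much nearer to wild type than the other knockout arrays. Wild type replicate 2 stood apart in platelet and erythroid markers. The fits were repeated without each array.

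Of the 56 genes, 28 had both group means at or below background. Another 26 were above it in both groups, Cxcl17 was above it in wild type alone and Ccl3 in the knockout alone. Most receptors of circulating leukocytes were among the dim genes: 8 of 10 CC receptors and 3 of 6 CXC receptors lay near background. So did 6 of the 7 neutrophil markers, 4 of 6 T cell markers, 3 of 5 B cell markers and 3 of 5 dendritic cell markers. All 10 cardiomyocyte, 10 fibroblast, 9 endothelial and 11 macrophage markers were above it in at least 1 group.

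A total of 4 genes rose in the knockout (Cx3cl1, Cxcl14, Ccl11 and Cxcl3) and 5 fell (Ccl9, Ackr2, Ccl7, Ccl6 and Cxcl2). Together they are 16.1% of the family, against 16.6% of all genes called in either direction. The share that rose was 7.14% against 10.4% of all genes, and the share that fell 8.93% against 6.18%. The share of called genes in the family was close to that of all genes in this fit. Of the 34 ligands 8 were called, and of the 22 receptors only Ackr2; this contrast was not tested. The median difference was -0.09, against -0.05 over all genes, and 42 of 56 differences were negative, as were 57.1% of all differences. Centring each array on its median lifts the median of all genes by 0.101 and turns the median of the family to 0.01, with 27 of 56 differences negative and 7 genes called higher and 3 lower. The calls were also sensitive to single arrays. They numbered 2 higher and 2 lower without wild type replicate 1, 3 and 3 without replicate 2, 2 and 3 without replicate 3, 1 and 1 without knockout replicate 1 or 2, and 2 and 2 without knockout replicate 3. In each of these fits the called share of the family lay below that of all genes: 7.14% against 18% without wild type replicate 1, 10.7% against 15.4% without replicate 2 and 8.93% against 12.3% without replicate 3. It was 3.57% against 9.81% without knockout replicate 1, 3.57% against 9.08% without replicate 2 and 7.14% against 11.2% without replicate 3. The genes called in all 16 alternative fits were Ccl9 and Cxcl14.

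**Figure D1:**
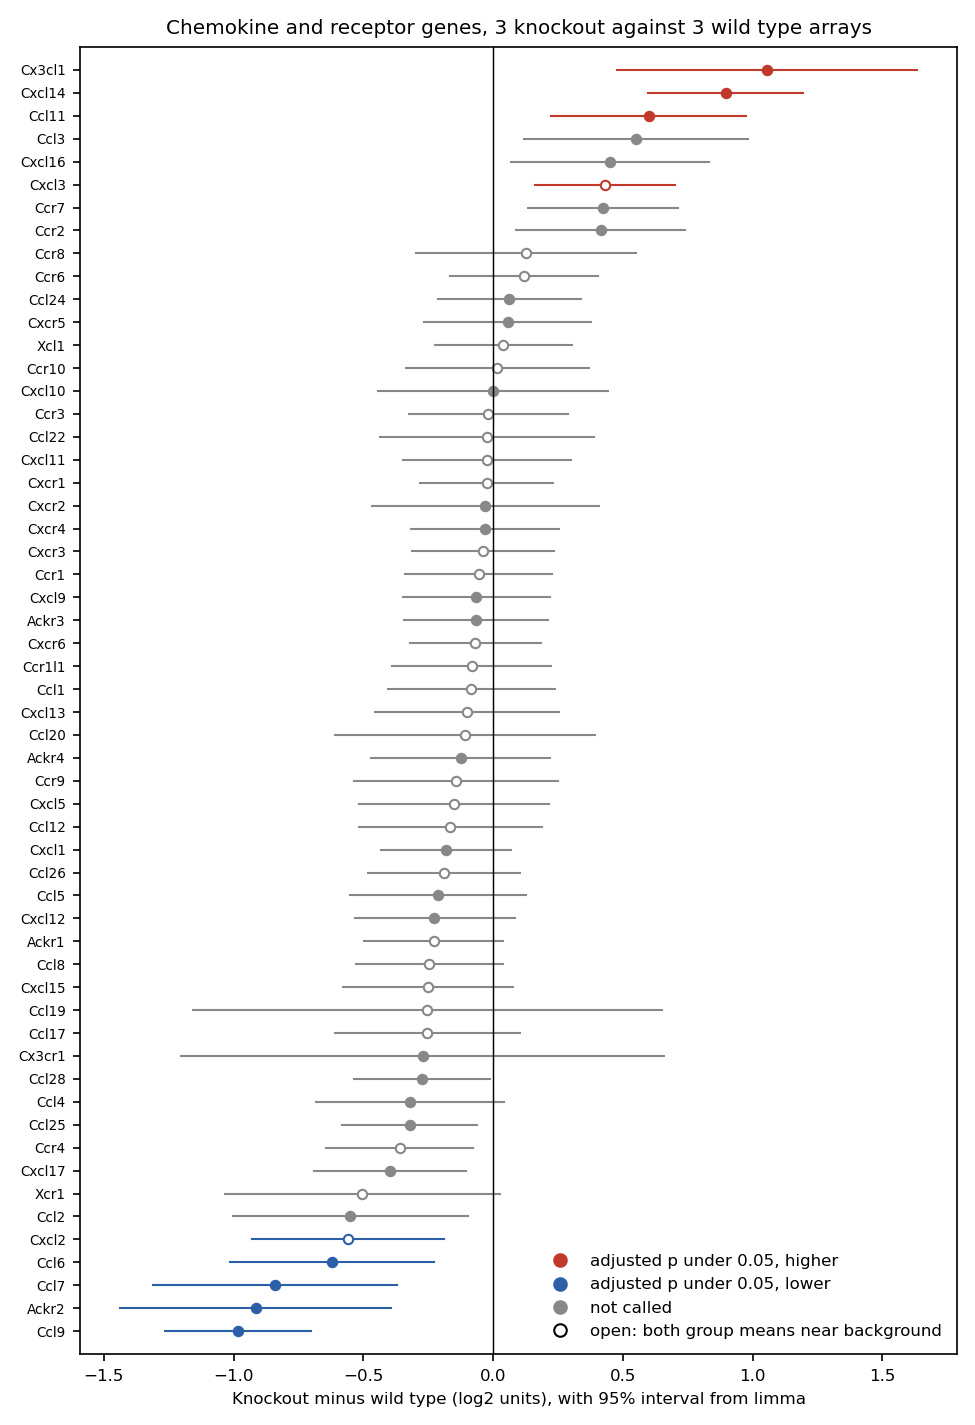
Difference between the 3 knockout and 3 wild type arrays for each of the 56 genes (horizontal axis, log2 units; bars are 95% intervals from limma), ordered by size. Red marks the 4 genes that rose, blue the 5 that fell and grey those not called; open points are the 28 genes with both group means near background, which include the called genes Cxcl2 and Cxcl3.

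Among the CC ligands, Ccl9 showed the clearest difference. Ccl9 (Entrez gene 20308) is a mouse chemokine of myeloid cells that acts on Ccr1. Its wild type replicates 1, 2 and 3 stood at 4.998, 4.98 and 5.23 and its knockout replicates at 4.07, 4.18 and 3.997. The knockout arrays lay close together and all below the wild type arrays. Means were 5.07 ± 0.14 in wild type and 4.08 ± 0.09 in the knockout (SD, n = 3), a 1.98-fold fall (difference -0.98, SE 0.12, 95% interval -1.27 to -0.70, limma adjusted p = 0.00170). Over the alternative fits the difference lay between -1.08 and -0.88 and the adjusted p between 0.00136 and 0.0155. Its receptor Ccr1 was near background in both groups, at 1.02 to 1.29 in wild type and 1.01 to 1.18 in the knockout.

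Ccl6 (Entrez gene 20305), a rodent CC chemokine that macrophages make and the next chemokine gene beside Ccl9 on chromosome 11, read 3.24, 2.72 and 2.62 in wild type and 2.18, 2.23 and 2.31 in the knockout. The groups did not overlap, with wild type replicate 1 the highest array. Ccl6 fell 1.54-fold (difference -0.62, SE 0.17, limma adjusted p = 0.0410), but the call was lost after either rescaling of the arrays, with a variance trend, with the replicate block and without wild type replicate 1, any 1 knockout array or both arrays numbered 1, with adjusted p up to 0.1504. None of the 11 macrophage markers was near background, and of all genes at such levels 9.501% fell. Of these markers 1 fell (9.09%, against 6.18% of all genes), the mannose receptor Mrc1 (difference -0.66, limma adjusted p = 0.00715). C1qa, a complement subunit, had the next lowest p (-0.52, limma adjusted p = 0.0683). Close to it in p but opposite in sign was Cd68, a lysosomal protein of macrophages, with every knockout array above the wild type arrays (0.40, limma adjusted p = 0.0731). The mean level of that list was 4.29 to 4.35 on the wild type arrays and 4.07 to 4.13 on the knockout arrays. Its part in the lower Ccl9 and Ccl6 was not tested, and in bulk RNA fewer cells of a type and less RNA per cell cannot be told apart.

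Ccl7 (Entrez gene 20306), which attracts monocytes through Ccr2, read 3.44, 3.12 and 2.69 in wild type and 1.96, 2.40 and 2.36 in the knockout. Knockout replicate 1 was the lowest array and close to background. The fall was 1.79-fold (difference -0.84, SE 0.21, 95% interval -1.31 to -0.37, limma adjusted p = 0.0256). It was not called without wild type replicate 1 or 2, any 1 knockout array or both arrays numbered 1 (adjusted p 0.0505 to 0.132). Ccl2, its neighbour and the best known ligand of Ccr2, was not called and read 3.48, 2.99 and 2.86 in wild type and 2.25, 2.70 and 2.72 in the knockout. Its groups did not overlap, and the difference was -0.55 (95% interval -1.004 to -0.098, limma adjusted p = 0.1). It was -0.37 without wild type replicate 1 and -0.21 without both arrays numbered 1.

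Ccl11 (Entrez gene 20292), or eotaxin, the eosinophil attractant that acts on Ccr3, differed the other way although it is the gene next to Ccl7. It read 3.998, 4.30 and 4.03 in wild type and 4.60, 5.02 and 4.501 in the knockout, with knockout replicate 2 the highest. Ccl11 rose 1.52-fold (difference 0.60, SE 0.17, 95% interval 0.22 to 0.98, limma adjusted p = 0.0401). The call was lost after quantile normalization (0.0597), with array weights (0.0519), without wild type replicate 1 or 3, without any 1 knockout array (up to 0.127) and without both arrays numbered 1 (0.138). Ccr3 was near background throughout, at 0.63 to 0.98 in wild type and 0.64 to 0.85 in the knockout. Fibroblasts are a known source of Ccl11, Ccl7 and Ccl2. Of 10 fibroblast markers 6 fell (60%), against 6.18% of all genes. Of all genes not near background, as these 10 were, 9.501% fell and 26.3% were called in either direction. Col3a1 and Col1a1, collagen chains, had the lowest p (differences -2.85 and -2.50). The mean level of the 10 markers was 6.90 to 7.82 in wild type and 6.20 to 6.36 in the knockout. Wild type replicate 2, the lowest wild type array of that list, was the highest wild type array for Ccl11 but the middle one for Ccl7 (3.12) and Ccl2 (2.99). The part of these cells in the differences of Ccl11, Ccl7 and Ccl2 was not tested.

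The other CC ligands were not called. Ccl25, which acts on Ccr9, stood at 2.85 to 3.00 in wild type and 2.54 to 2.68 in the knockout (difference -0.32, limma adjusted p = 0.0923). Ccl28, a mucosal chemokine, stood at 2.12 to 2.16 and 1.79 to 2.00 (difference -0.28, limma adjusted p = 0.149). Ccl4, an attractant of T cells and monocytes, stood at 2.17 to 2.64 and 1.93 to 2.14 (difference -0.32, limma adjusted p = 0.222), and its difference was -0.17 without wild type replicate 2. In these 3 genes every knockout array lay below every wild type array. After centring the differences of Ccl25, Ccl28 and Ccl4 were smaller, at -0.222, -0.175 and -0.22. Ccl3, a neighbour of Ccl4, overlapped between the groups, with a difference of 0.55 (95% interval 0.12 to 0.98, limma adjusted p = 0.0869). Ccl5, another T cell attractant, stood at 2.29 to 2.78 in wild type and 2.23 to 2.40 in the knockout, which overlap. Ccl12, a mouse ligand of Ccr2, was near background (difference -0.17, limma adjusted p = 0.546, and -0.05 without wild type replicate 2).

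Among the CXC ligands Cxcl14 stood out. Cxcl14 (Entrez gene 57266) is a chemokine that many tissues make constantly. It read 5.18, 5.498 and 5.16 in wild type and 6.22, 6.11 and 6.19 in the knockout, with narrow spread in the knockout. Means were 5.28 ± 0.19 and 6.17 ± 0.06 (SD, n = 3), a 1.86-fold rise (difference 0.90, SE 0.13, 95% interval 0.60 to 1.196, limma adjusted p = 0.00310). Over the alternative fits the difference lay between 0.74 and 1.01 and the adjusted p between 0.00186 and 0.0304. Cxcl16, a chemokine with a membrane anchor, read 5.01, 4.62 and 4.38 in wild type and 5.20, 5.09 and 5.07 in the knockout. It did not overlap between groups but was not called (difference 0.45, limma adjusted p = 0.1095), except without wild type replicate 1 (0.62, adjusted p = 0.0178). Cxcr6, the receptor of Cxcl16, was near background at 0.96 to 1.08 and 0.91 to 1.03.

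The neutrophil attractants were dim and split. Cxcl2 (Entrez gene 20310) read 1.30, 1.63 and 1.22 in wild type and 0.63, 0.77 and 1.07 in the knockout, and Cxcl3 (Entrez gene 330122) 0.67, 0.63 and 0.59 against 1.11, 1.16 and 0.92. Neither gene overlapped between the groups. Both were called, Cxcl2 lower (difference -0.56, SE 0.16, limma adjusted p = 0.0488) and Cxcl3 higher (difference 0.43, SE 0.12, limma adjusted p = 0.0389), yet all 12 values lie under the background level. Calls were rare at such levels: of all 8902 genes near background 14 rose and 75 fell. The call of Cxcl3 was lost without any 1 array (adjusted p 0.0519 to 0.143), without both arrays numbered 1 (0.148) and with the replicate block (0.0668). That of Cxcl2 was lost without any 1 array other than knockout replicate 3 (0.0588 to 0.164), after either rescaling, with array weights, with the replicate block (0.0689) and without both arrays numbered 1. Filters on dim genes left both genes out. Cxcl1, the third ligand of Cxcr2 named here, read 2.01 to 2.10 in wild type and 1.79 to 1.93 in the knockout (difference -0.18, limma adjusted p = 0.326, and -0.081 after centring). Cxcr2 itself read 1.59, 2.32 and 2.17 in wild type and 2.05, 2.08 and 1.86 in the knockout. Of the 7 neutrophil markers limma called 0, and 0 had an unadjusted p under 0.05. Of these markers 6 lay near background, where 1.00% of all genes were called. The mean level of the 7 was 1.41 to 1.53 in wild type and 1.31 to 1.43 in the knockout.

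Cxcl17, a mucosal chemokine, stood at 1.75 to 2.07 in wild type and 1.46 to 1.62 in the knockout, without overlap and without a call (difference -0.40, limma adjusted p = 0.0694, and -0.298 after centring). Cxcl12, a ligand that holds blood stem cells and vessels in place, overlapped between the groups at 7.06, 7.25 and 7.46 in wild type and 6.94, 7.06 and 7.08 in the knockout. The 95% interval of its difference ran from -0.53 to 0.08, so a fall of 1 log2 unit lies outside it in the deposited scaling. The interferon-induced ligands Cxcl9 and Cxcl10 differed by -0.07 and -0.002, and the wild type and knockout arrays overlapped in both.

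To show the bases before the start of the called genes, RefSeq windows of GRCm38.p6 were searched on both strands for an NF-kB site, an AP-1 site (TGANTCA) and a STAT site of the GAS type (TTCNNNGAA). Windows of 250 bases were at hand for 42 of the 56 genes and for 7 of the 9 called ones. These 42 genes have 44 windows. An NF-kB match was found in 11 of the 44 (25%), among them those of the called genes Ccl9, Ackr2, Cxcl2 and Cxcl3, against 7.25% of 32851 windows of all genes. An AP-1 match was found in 4 (9.09%, against 6.75%) and a GAS match in 4 (9.09%, against 7.02%). The windows of Ccl6 and Cx3cl1 held none of the 3. Printed are Ccl9 and Cxcl14, whose calls held in all fits, and Cxcl2 and Cxcl3, of the same group of chemokine genes on chromosome 5 and called in opposite directions, each 5′ to 3′ up to the base before the start with matches in capitals. The Ccl9 window (chr11:83578637-83578886, minus strand) holds an AP-1 and then an NF-kB match, and that of Cxcl14 (chr13:56296552-56296801, minus strand) a GAS match. The windows of Cxcl2 (chr5:90903649-90903898, plus strand) and Cxcl3 (chr5:90785851-90786100, plus strand) hold the same run, GGGAATTTCCC, covered by overlapping NF-kB matches, which begins 97 and 73 bases before the start. A match describes the sequence and does not show that a factor binds there.
Ccl9: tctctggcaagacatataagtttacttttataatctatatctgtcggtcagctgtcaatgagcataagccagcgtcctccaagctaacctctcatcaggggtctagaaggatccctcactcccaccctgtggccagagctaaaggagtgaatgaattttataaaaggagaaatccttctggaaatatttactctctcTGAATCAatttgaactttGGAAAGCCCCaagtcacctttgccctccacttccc
Cxcl14: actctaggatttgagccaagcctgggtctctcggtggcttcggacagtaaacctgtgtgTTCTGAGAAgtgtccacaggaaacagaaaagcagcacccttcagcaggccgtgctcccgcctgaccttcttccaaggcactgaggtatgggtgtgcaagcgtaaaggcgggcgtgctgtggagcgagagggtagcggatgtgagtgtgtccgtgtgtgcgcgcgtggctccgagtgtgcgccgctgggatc
Cxcl2: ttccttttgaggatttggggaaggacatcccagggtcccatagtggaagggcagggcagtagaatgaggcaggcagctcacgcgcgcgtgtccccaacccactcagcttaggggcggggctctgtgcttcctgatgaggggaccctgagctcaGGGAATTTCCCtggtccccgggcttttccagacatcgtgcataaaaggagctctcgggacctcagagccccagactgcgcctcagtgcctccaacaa
Cxcl3: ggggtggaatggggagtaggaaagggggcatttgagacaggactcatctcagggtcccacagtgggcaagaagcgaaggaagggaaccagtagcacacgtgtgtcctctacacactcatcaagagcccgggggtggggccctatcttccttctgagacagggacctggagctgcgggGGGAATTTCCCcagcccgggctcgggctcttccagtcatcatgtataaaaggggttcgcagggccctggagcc

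Cx3cl1 (Entrez gene 20312), or fractalkine, a chemokine held on the cell surface by a mucin stalk and known from endothelium, had the largest rise in the family. It read 3.17, 2.80 and 3.83 in wild type and 4.24, 4.61 and 4.11 in the knockout. Wild type replicate 3 was the nearest to the knockout, and the groups did not overlap. Means were 3.27 ± 0.52 and 4.32 ± 0.26 (SD, n = 3), a 2.08-fold rise (difference 1.06, SE 0.25, 95% interval 0.48 to 1.64, limma adjusted p = 0.0236). The call was lost without wild type replicate 1 (0.0505), without knockout replicate 1 (0.0680) or 2 (0.0976) and without both arrays numbered 1 (0.109). Over the same arrays 3 of 9 endothelial markers fell (33.3%, against 6.18% of all genes) and none rose. Of all genes not near background, as these 9 were, 9.501% fell. Vwf and Egfl7 had the lowest p (differences -1.89 and -1.27). The mean level of the 9 markers was 7.13 to 7.22 in wild type and 6.43 to 6.75 in the knockout. This was opposite in direction to Cx3cl1, and the part of these cells in its difference was not tested.

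**Figure D2:**
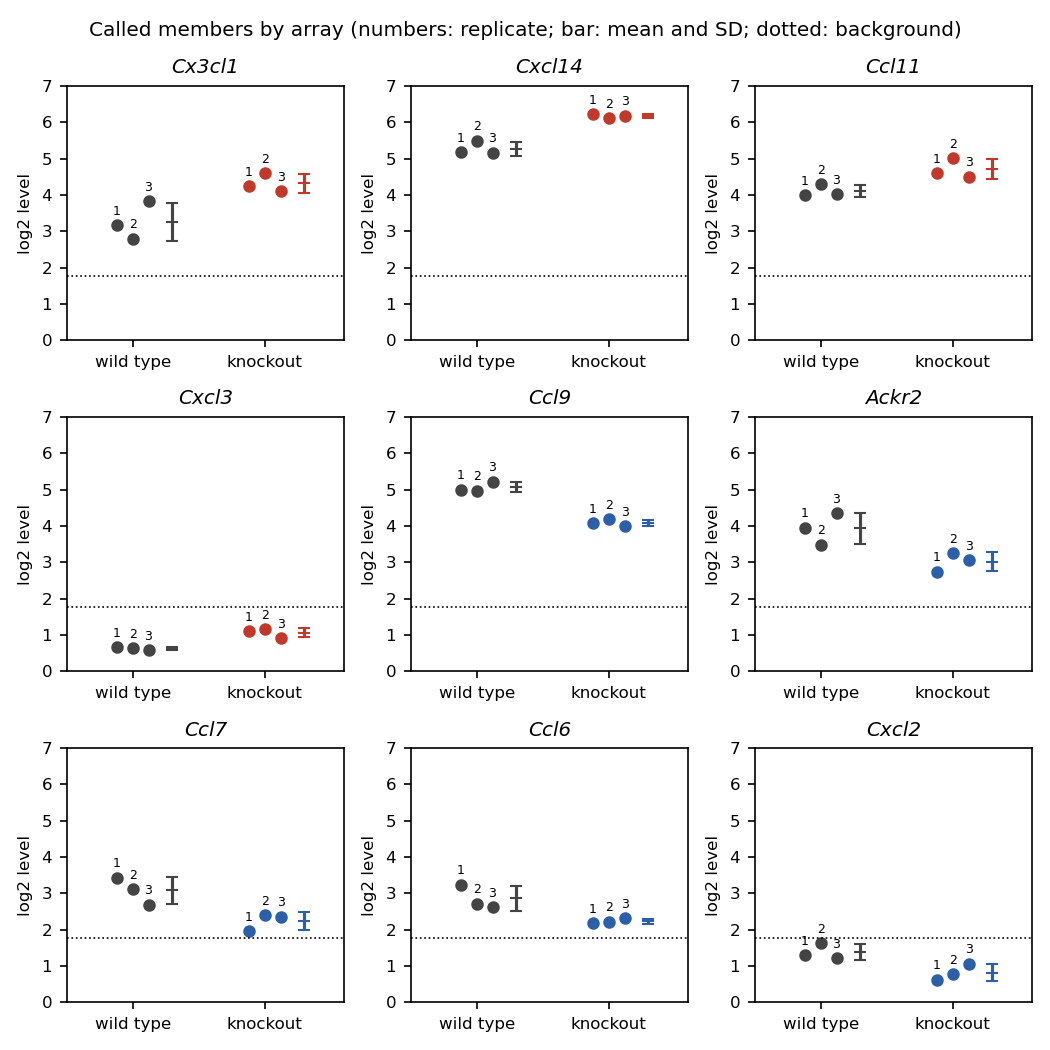
Log2 level on each array (vertical axis) of the 9 called genes, with replicate numbers, the mean and SD (n = 3) and the background level of 1.78 as a dotted line. In all 9 genes the knockout and wild type points do not overlap, and Cxcl2 and Cxcl3 lie wholly under the dotted line.

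The receptor Cx3cr1, carried by resident macrophages and monocytes, was uneven in wild type. It read 2.76, 4.67 and 3.82 there and 3.21, 3.66 and 3.56 in the knockout, so the knockout values fell inside the wild type range. The difference of -0.27 had a wide 95% interval, -1.20 to 0.66, and turned to 0.19 without wild type replicate 2. Xcl1 and its receptor Xcr1, a marker of cross-presenting dendritic cells, were both near background.

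Of the G protein-coupled receptors 0 of 18 were called in the deposited scaling, by limma, while 3 had an unadjusted p under 0.05, against 16.6% of all genes called and 6792 of 23185 with such a p. Those 3 were Ccr7 and Ccr2, which had higher means in the knockout, and Ccr4, which lay near background. Near background lay 8 of the 10 CC, 3 of the 6 CXC and 1 of the 2 CX3C or XC receptors. Over all genes, 1.00% of those near background were called and 26.3% of the others, so few calls are to be had among dim receptors. Ccr7 (Entrez gene 12775), which leads dendritic cells and T cells to lymph nodes, read 2.03, 2.21 and 2.28 in wild type and 2.70, 2.61 and 2.47 in the knockout. Its difference was 0.42 (95% interval 0.14 to 0.71, limma adjusted p = 0.0533), and it was called after quantile normalization (0.51, adjusted p = 0.0247), after centring (0.52, 0.0197) and without the dimmest 50% of genes (0.42, 0.0427). Ccr2 (Entrez gene 12772), the receptor of inflammatory monocytes, read 1.62, 2.00 and 2.06 in wild type and 2.29, 2.36 and 2.27 in the knockout. Its difference was 0.42 (95% interval 0.09 to 0.74, limma adjusted p = 0.0865), and it was called after quantile normalization (0.52, adjusted p = 0.0369) and centring (0.52, 0.0366). Wild type replicate 1 lay below background for Ccr2.

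Among T cell markers Cd4 rose (difference 0.77, limma adjusted p = 0.00369) and Cd3e had the next lowest p (0.42, limma adjusted p = 0.1245), while Cd3d, Cd3g, Cd8a and Cd2 were near background. The mean over the 6 T cell markers was 1.601 to 1.80 in wild type and 1.74 to 1.92 in the knockout, and its relation to Ccr7 was not tested. Ccl19, a ligand of Ccr7, ranged from 0.45 to 2.33 within the knockout alone, with knockout replicate 2 the lowest, and from 1.496 to 1.86 in wild type. Its difference of -0.25 turned to 0.23 without that array.

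Cxcr4, the signalling receptor of Cxcl12, read 4.76, 4.69 and 4.74 in wild type and 4.89, 4.60 and 4.60 in the knockout. The difference was -0.03 (95% interval -0.32 to 0.25). The atypical receptor Ackr3, which scavenges Cxcl12, read 8.15, 7.97 and 7.88 in wild type and 7.85, 7.95 and 7.99 in the knockout, a difference of -0.07 (95% interval -0.34 to 0.21). In the deposited scaling the intervals of Cxcl12, Cxcr4 and Ackr3 all include 0 and leave out changes of 1 log2 unit either way. After quantile normalization the differences were larger for Cxcl12 (-0.46, limma adjusted p = 0.0880) and Ackr3 (-0.34, limma adjusted p = 0.0892), still without a call, and after centring those of Cxcr4 and Ackr3 turned to 0.07 and 0.03.

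Ackr2 (Entrez gene 59289), which scavenges inflammatory CC chemokines such as Ccl2 and Ccl7, was the receptor that fell. It read 3.96, 3.48 and 4.36 in wild type and 2.74, 3.25 and 3.06 in the knockout, with wild type replicate 2 nearest to the knockout. The fall was 1.89-fold (difference -0.92, SE 0.23, 95% interval -1.44 to -0.39, limma adjusted p = 0.0278). It kept its call without wild type replicate 2 (adjusted p = 0.00805) but not without any 1 of the other 5 arrays (0.0527 to 0.104) or without both arrays numbered 1 (0.148). Lymphatic endothelium is a known site of Ackr2. Of its 6 markers Prox1, which cardiomyocytes also carry, rose (difference 1.59, limma adjusted p = 0.00143), Lyve1 had the next lowest p (-0.46, limma adjusted p = 0.145), and the mean was 4.42 to 4.69 in wild type and 4.58 to 4.61 in the knockout. Ackr4, a scavenger of the ligands of Ccr7, overlapped at 2.71 to 3.21 and 2.77 to 2.96 (difference -0.12, and -0.02 without wild type replicate 2), and Ackr1 lay near background.

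**Figure D3:**
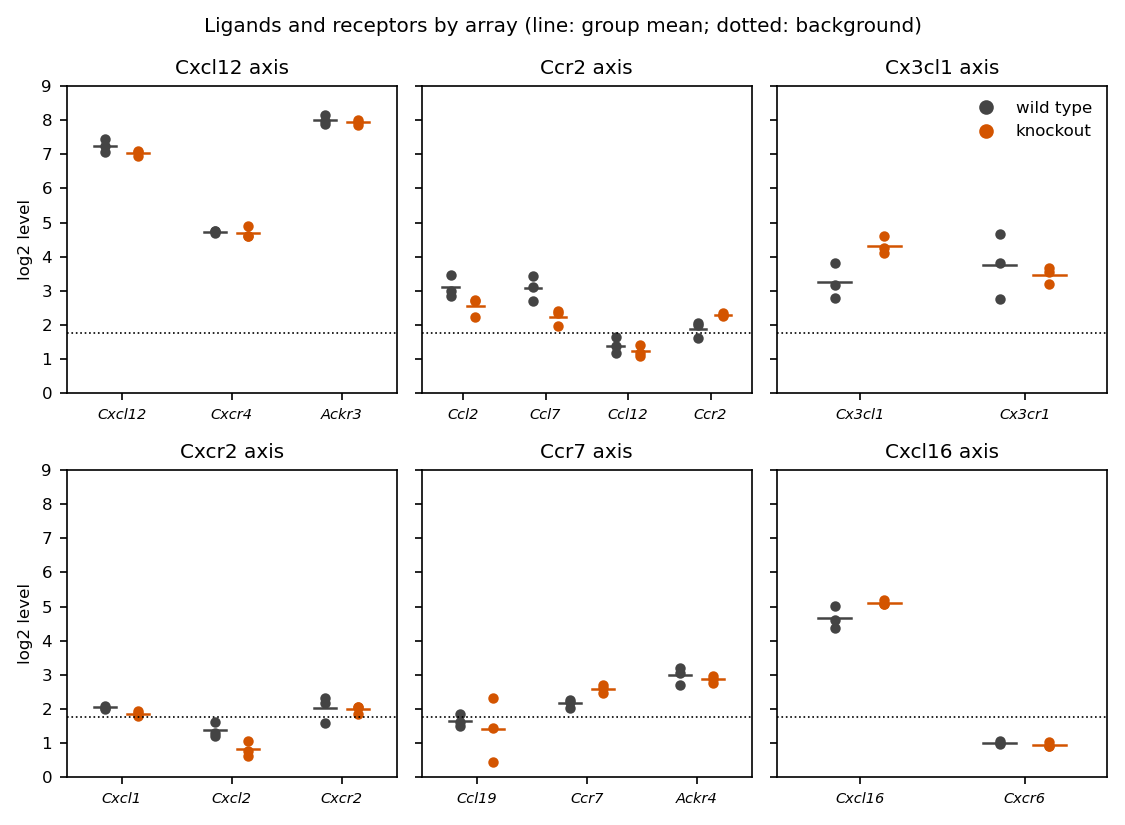
Log2 level on each array (vertical axis) of ligands with their receptors in 6 panels; grey points are the 3 wild type arrays, orange the 3 knockout arrays, lines the group means and the dotted line the background level. Points of Cxcl12, Cxcr4 and Ackr3 overlap between groups, Ccl2 and Ccl7 are lower and Ccr2 higher on every knockout array, and Cx3cr1 spreads from 2.76 to 4.67 in wild type.

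Every knockout array was above every wild type array for 7 of the 56 genes (12.5%), against 17.2% of all genes, and below it for 15 (26.8%), against 17% of all genes. Of those 22 genes, 9 were called. The shares depend on level. Among the 28 members near background 1 (3.57%) lay above and 5 (17.9%) below, against 2.76% and 12.5% of all genes near background. Among the 28 other members 6 (21.4%) lay above and 10 (35.7%) below, against 26.2% and 19.7% of all other genes. Besides the 28 genes that the naming rule gives, another 28 remain. Of these limma called 0, 2 had an unadjusted p under 0.05, and 23 lay near background, with group means of 0.67 to 1.74. The differences of the 28 ran from -0.50 to 0.55. By place in the genome, 35 of the 56 genes lie in 9 groups of neighbours under 200 kb apart. On chromosome 11 Ccl7 fell and the next gene, Ccl11, rose, while Ccl9 and Ccl6, next to each other, both fell. On chromosome 5 Cxcl3 rose and Cxcl2 fell, with Cxcl15 and Cxcl1 between them. Cx3cl1 rose by 1.06, while the genes on either side of it, Ccl22 and Ccl17, were near background with differences of -0.02 and -0.25.

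Genes that act below the receptors, relatives outside the symbol rule and inducers were read from a list of 67 genes, of which 61 had a row and the others were not analysed here. Of the 61, 2 rose (3.28%) and 8 fell (13.1%), with a median difference of -0.08, against 10.4%, 6.18% and -0.05 over all genes. Most of the list, 56 of the 61, was not near background. Among all genes not near background 16.8% rose and 9.501% fell, with a median difference of 0.001. Arrb1 and Arrb2, the arrestins that end receptor signalling and drive uptake of the receptor, both fell. Arrb1 read 5.87, 5.65 and 5.47 in wild type and 4.47, 4.62 and 4.27 in the knockout, a difference of -1.21 (SE 0.15, limma adjusted p = 0.00156). Arrb2 read 5.14, 5.68 and 5.45 against 4.37, 4.16 and 4.03, a difference of -1.24 (SE 0.17, limma adjusted p = 0.00218). Both arrestins were called in all 16 alternative fits.

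Grk3 and Grk6, kinases that mark active receptors for arrestin, also fell, by 0.80 and 0.76 on the log2 scale (limma adjusted p = 0.00615 and 0.0166). The G protein subunit Gnb2 fell by 0.71 (limma adjusted p = 0.0116), and Elmo1, which with Dock2 activates Rac in migrating cells, by 0.84 (limma adjusted p = 0.0283). Without both arrays numbered 1, Grk3, Grk6 and Elmo1 lost their calls. Grk6 was also not called without knockout replicate 1 or 2, Gnb2 without knockout replicate 1 (0.0508), and Elmo1 without any 1 knockout array (up to 0.0999). Nfkbiz, an inducible regulator of NF-kB targets, read 3.48, 3.44 and 3.57 in wild type and 2.63, 2.47 and 2.39 in the knockout and was called in all fits (difference -1.001, limma adjusted p = 0.00134). Cmklr1, the receptor of chemerin, completed the falls (-0.57, limma adjusted p = 0.0321) and lost its call after centring, without any 1 array other than wild type replicate 2, and without both arrays numbered 1. The other 14 inducers with a row were not called, and Il6 and Ifng, among them, were near background. The count of falls was 4 without knockout replicate 1 and 5 without replicate 2.

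The genes that rose were Rgs5, a regulator of G protein signalling that pericytes carry, by 1.23 (limma adjusted p = 0.000837), and the small GTPase Rac1 by 0.74 (limma adjusted p = 0.00981). Rgs5 was called in all fits and Rac1 in all but quantile normalization and the fit without both arrays numbered 1 (adjusted p up to 0.0913); without wild type replicate 1 the list had 4 rises. Ppbp and Pf4, platelet chemokines whose symbols lie outside the rule, were uneven in wild type. Ppbp read 5.68, 9.79 and 5.44 in wild type and 4.48, 4.72 and 4.58 in the knockout, and Pf4 3.25, 5.35 and 3.14 against 3.07, 3.04 and 2.98. Wild type replicate 2 was far the highest array for both, as it was for the mean of the 5 platelet markers (6.32, against 3.57 to 3.70 in the other wild type arrays and 2.99 to 3.02 in the knockout) and of the 3 erythroid markers (4.57 against 2.33 to 2.84 elsewhere). It was also the highest array for Cx3cr1 and the lowest wild type array for Ackr2 and Cx3cl1. Without that array Ppbp was called lower (difference -0.96 in place of -2.37, limma adjusted p = 0.00494) and Pf4 was not (-0.17 in place of -0.88, limma adjusted p = 0.458). Gp1bb, a platelet receptor subunit, fell among the platelet markers (-1.52, limma adjusted p = 0.0163, and -1.11, 0.00992 without that array), and lost its call without knockout replicate 1 or 2. Of the 10 smooth muscle and pericyte markers 2 rose (20%), Rgs5 and Kcnj8, and 5 fell (50%), against 10.4% and 6.18% of all genes. Of all genes not near background, as these 10 were, 16.8% rose and 9.501% fell. The mean of this list was 6.26 to 7.43 in wild type and 5.51 to 5.71 in the knockout. Of the 10 cardiomyocyte markers 2 rose (20%), Actn2 and Pln, against 10.4% of all genes and 16.8% of those not near background. In this list 6 of the 10 differences were negative, with a median of -0.11 and a lowest value of -0.70. The mean of that list was 10.63 to 10.82 in wild type and 10.73 to 10.77 in the knockout. Limma called 0 of the B cell, NK cell, dendritic cell, mast cell and erythroid markers, against 16.6% of all genes. Of these markers 1 erythroid gene had an unadjusted p under 0.05. Near background lay 3 of 5 B cell, 3 of 5 NK cell, 3 of 5 dendritic cell and 5 of 6 mast cell markers. Of all genes near background 1.00% were called, so few calls are to be had among these markers. Among called markers of smooth muscle (Cnn1, Myh11, Tagln), fibroblasts (Pdgfra, Dpt), endothelium (Pecam1) and cardiomyocytes (Pln), some calls hung on single arrays. Cnn1, Myh11, Pdgfra and Pln lost theirs without any 1 knockout array, Pecam1 without knockout replicate 1 or 2, Dpt without 2 or 3 and Tagln without 2; Cnn1 and Pdgfra also did without wild type replicate 1 or 3.

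**Figure D4:**
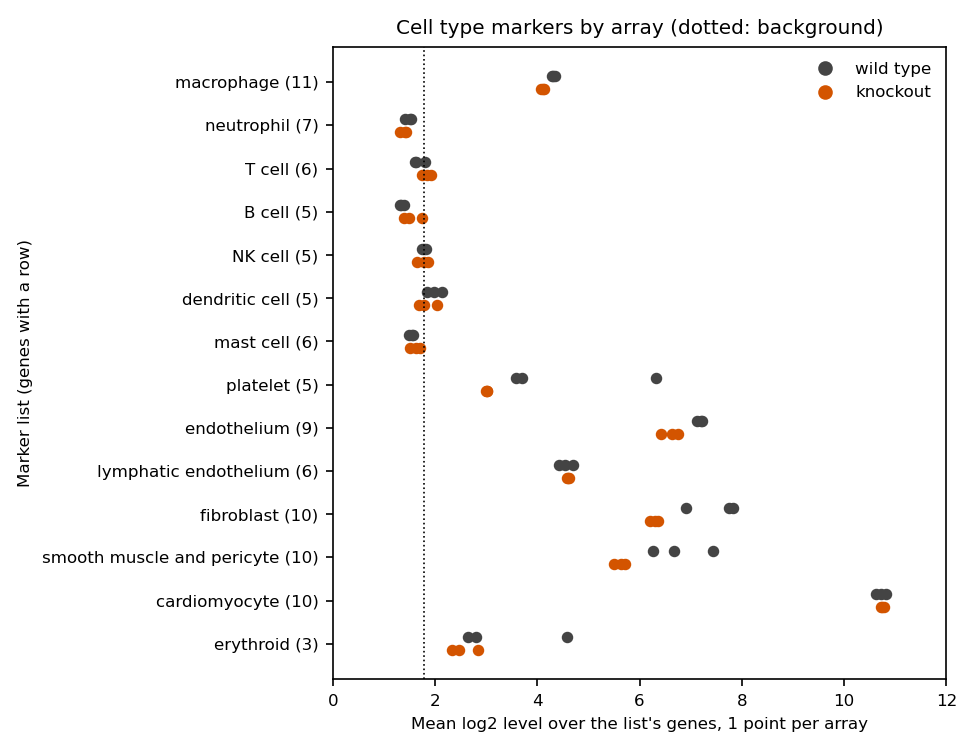
Mean log2 level (horizontal axis) over the genes of 14 cell type marker lists, 1 point per array (grey wild type, orange knockout), with the number of genes in brackets and the background level dotted. Fibroblast, smooth muscle and endothelial means are lower on every knockout array, lymphocyte, neutrophil and mast cell means lie near the dotted line, and 1 wild type array stands apart for platelet and erythroid markers.

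**Figure D5:**
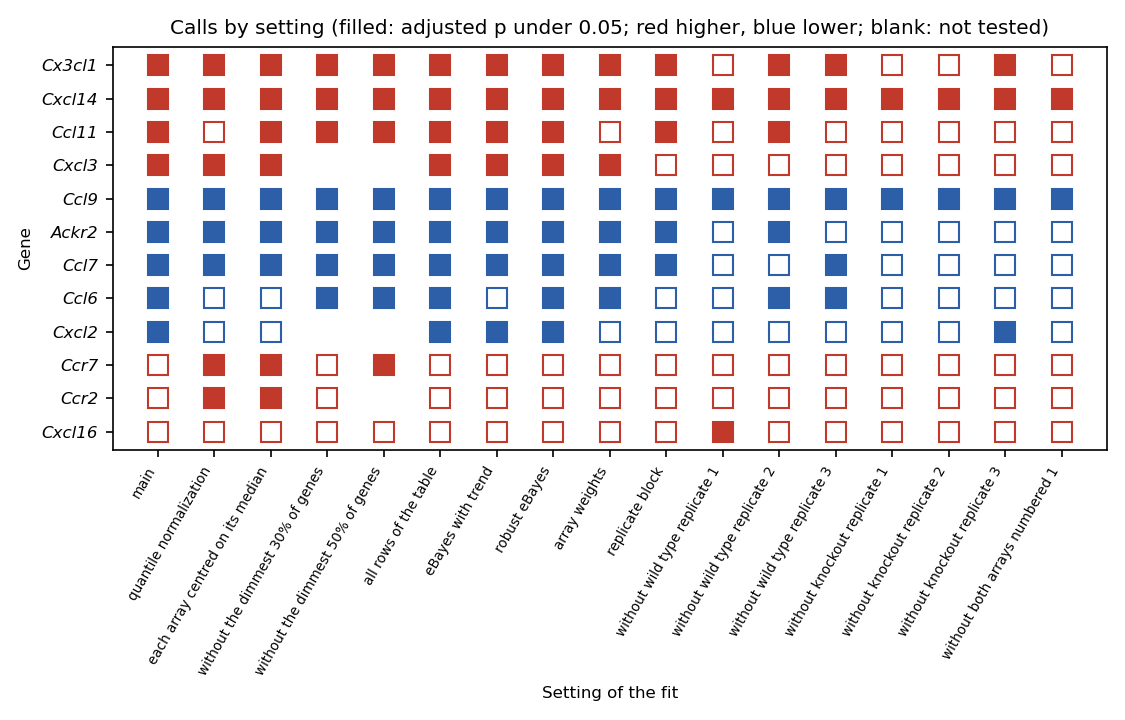
Calls of the 9 called genes and of Ccr7, Ccr2 and Cxcl16 (rows) in the fit as reported and 16 alternatives (columns); filled squares have an adjusted p under 0.05, red is higher and blue lower in the knockout, blank was not tested. Ccl9 and Cxcl14 are filled throughout, and most other genes lose their call without 1 knockout array.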

How the data were processed

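Heart RNA was labelled for Affymetrix arrays, 3 for the knockout and 3 for wild type, each a sample of its own. Per the submitters' processing notes, the authors used RMA with affy 1.61.0 in R 3.6.0. The deposited values are taken as log2 levels, from RMA and their range; background correction and normalization by RMA compress differences of dim genes, and levels of different probe sets are not comparable. Of 25206 rows, 23185 carry 1 platform symbol and were tested, and 2021 carry none. Knockout was set against wild type with limma 3.58.1 (lmFit, eBayes) in R 4.3.3, adjusted by Benjamini-Hochberg, with a threshold of 0.05. The script was tested on simulated data with changes planted in 50 genes at each size. It called 1 of 50 changes of 0.5 log2 units, 27 of 50 of 1, 42 of 50 of 2 and 26 of 50 of -1. A gene not called may thus still differ. Far fewer genes changed in that simulation than were called here. Figures were drawn with matplotlib 3.10.9. With 3 against 3 arrays an exact permutation test cannot give a two-sided p under 0.1, so it was not used. Alternatives were quantile normalization, centring, filters on the dimmest 30% and 50% of genes, all rows, variance trend, robust fit, array weights, a replicate block, leaving out each array, leaving out both arrays numbered 1, and thresholds of 0.01 and 0.10.

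Genes named are those called, those whose groups did not overlap and that lay above background in at least 1 group, and a list of 21 ligand and receptor genes, of which 19 had a row under their name and the others were not analysed here. Ackr1, Ccl3, Ccl17, Ccl22, Cxcl15, Ccr1, Ccr3, Ccr4, Cxcl9, Cxcl10, Xcl1 and Xcr1 were added after their values were seen, as were the genes singled out from the pathway and marker lists. The genes, the lists and the rules were chosen with earlier results of these data known. Lists are described by counts, with no test of a list. Neighbouring genes and promoter windows are from RefSeq (GRCm38.p6), matched by Entrez gene. All 56 genes matched, and RefSeq gives 1 of them a type other than protein coding. That gene is kept in all counts, which follow the symbol.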

Additional observations from a re-analysis of the deposited data

How the results depend on the processing

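The count of chemokine and receptor genes called higher was 4 as reported and 7 after centring each array on its median, 1 to 3 when single arrays were left out, 1 without both arrays numbered 1, 1 at a threshold of 0.01 and 7 at 0.10. The count called lower was 5 as reported, 3 after quantile normalization, 3 after centring, 3 with the replicate block, 1 to 3 when single arrays were left out, 1 without both arrays numbered 1, 1 at 0.01 and 9 at 0.10. In the pathway list, 2 genes were higher as reported, 1 after quantile normalization, 4 after centring, 2 to 4 without single arrays, 1 without both arrays numbered 1 and 4 at 0.10; 8 were lower as reported, 11 after quantile normalization, 4 to 10 without single arrays, 4 without both arrays numbered 1, 4 at 0.01 and 12 at 0.10. The median difference over the 56 genes was 0.009 after centring and -0.168 without the dimmest 50% of genes, where 18 of them were tested. With background at the 99th percentile of the olfactory genes 12 genes, not 28, lay above it. Over all 56 genes, 42 differences were negative as reported, 32 after quantile normalization and 27 after centring. Signs of single genes were followed only for the 28 that the naming rule gives. Among these, differences that turned sign, all uncalled, were those of Ackr3 (-0.34 after quantile normalization, 0.034 after centring, 0.049 without both arrays numbered 1, -0.126 to 0.01 without single arrays), Cxcr2 (0.073 after quantile normalization, 0.071 after centring, -0.249 to 0.117), Cxcr4 (0.068 after centring, -0.13 to 0.017), Cxcr6 (0.031 after centring), Ccl19 (-0.712 to 0.228) and Cx3cr1 (-0.769 to 0.188). The cause was not tested. Over all genes, 2416 were called higher and 1432 lower as reported, 1886 and 1528 after quantile normalization, and 3090 and 1008 after centring. Deviations of same-numbered arrays of the groups had correlations of 0.0896, 0.0478 and 0.07, and those of differently numbered arrays lay between -0.1195 and 0.0548. The numbers were not taken to pair the arrays, although these values do not show that there was no pairing. With the replicate block 3 members were called higher and 3 lower. Of the 56 genes 28 lie near background, where array signal limits what can be detected.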
